A study of Mus musculus with 5 samples.

Results

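The core circadian clock genes were followed in Kupffer cells, which are the resident macrophages of the liver, from mice without Id3 and from mice with 1 remaining copy. The 10 genes were chosen by symbol from textbook knowledge of the clock: Arntl (also called Bmal1), Clock, Npas2, Cry1, Cry2, Per1, Per2, Per3, Nr1d1 and Nr1d2. They make up 10 of the 46983 genes counted, each was matched to a single row of the count table, and all 10 were among the 16436 genes with enough counts to be tested. The list was taken up with the genotype contrast already known, in which Nr1d1 had one of the highest fold changes. Fold changes of these 10 genes are therefore given as a description without p-values. Whether a member passed the fit over all genes, with all libraries or with 1 left out, is description too and adds no support.

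The data are RNA-seq read counts of poly-A RNA from Id3-/- Kupffer cells (2 libraries, replicates 2 and 3) and Id3+/- Kupffer cells (3 libraries, replicates 1, 2 and 3). The study concerns how resident macrophages are specified in their tissues, and the comparison asks which transcripts differ when Id3, an inhibitor of basic helix-loop-helix transcription factors, is lost. The heterozygous mice lack 1 Id3 allele as well, so neither group is wild type. The labels give no strain, age, sex, method of cell sorting or time of day at which the livers were taken. Every column name of the count table holds "3w", which could be an age, but the labels do not explain it. They also do not say whether each library came from its own animal, so the spread between libraries may be technical.

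In mammals the clock is a transcriptional feedback loop. The proteins of Arntl and of Clock or its relative Npas2 pair up and bind E-box sequences, which turns on the Per and Cry genes, whose proteins then inhibit that pair. The same pair also turns on Nr1d1 and Nr1d2, which encode the nuclear receptors REV-ERB alpha and REV-ERB beta, and these in turn repress Arntl. Macrophages and hepatocytes both run this clock, and the level of most of these transcripts depends on the hour.

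Promoter sequences of 9 of the 10 genes were found in RefSeq (build GRCm38.p6, 250 bases before to 50 bases after an annotated start). The 5 below are shown because Nr1d1 and Per3 had the highest fold changes in the knockout cells, Arntl and Cry1 were the 2 that passed the test as lower, and 1 of 2 Per1 windows held 3 of the motifs looked for while the level of Per1 differed little. Of the 2 windows each that the table gives for Arntl and for Per1, the one with a match is printed, and the other held none of these motifs. They are printed 5′ to 3′ on the gene's strand. Capitals mark any match, on either strand, to the E-box CACGTG, the E-prime box CACGTT, the nuclear receptor motif AGGTCA or the D-box TTATGNAA, which no other motif overlapped here.
Nr1d1, chr11:98775328-98775627, minus strand: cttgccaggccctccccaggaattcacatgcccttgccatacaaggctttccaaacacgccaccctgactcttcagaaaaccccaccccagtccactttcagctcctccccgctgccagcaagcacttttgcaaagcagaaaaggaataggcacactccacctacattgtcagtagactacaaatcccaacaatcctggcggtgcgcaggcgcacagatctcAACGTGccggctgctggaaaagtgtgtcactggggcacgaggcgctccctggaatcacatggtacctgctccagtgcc
Per3, chr4:151044616-151044915, minus strand: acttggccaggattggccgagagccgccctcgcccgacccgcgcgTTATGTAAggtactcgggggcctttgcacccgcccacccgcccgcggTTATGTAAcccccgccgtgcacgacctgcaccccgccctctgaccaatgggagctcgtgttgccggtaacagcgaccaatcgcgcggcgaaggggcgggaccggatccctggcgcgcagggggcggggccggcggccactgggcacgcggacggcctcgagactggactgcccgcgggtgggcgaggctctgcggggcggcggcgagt
Arntl, chr7:113207261-113207560, plus strand: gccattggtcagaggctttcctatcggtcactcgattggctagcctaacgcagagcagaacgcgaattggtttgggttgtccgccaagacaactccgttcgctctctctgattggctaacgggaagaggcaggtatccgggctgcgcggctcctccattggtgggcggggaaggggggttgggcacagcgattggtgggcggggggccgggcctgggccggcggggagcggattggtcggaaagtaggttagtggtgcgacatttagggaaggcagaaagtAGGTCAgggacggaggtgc
Cry1, chr10:85185005-85185304, minus strand: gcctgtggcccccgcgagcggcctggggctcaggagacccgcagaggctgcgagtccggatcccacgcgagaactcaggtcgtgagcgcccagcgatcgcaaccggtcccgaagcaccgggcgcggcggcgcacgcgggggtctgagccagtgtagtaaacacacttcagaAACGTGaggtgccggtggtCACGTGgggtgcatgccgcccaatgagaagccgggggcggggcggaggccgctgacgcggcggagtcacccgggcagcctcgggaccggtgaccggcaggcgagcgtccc
Per1, chr11:69098699-69098998, plus strand: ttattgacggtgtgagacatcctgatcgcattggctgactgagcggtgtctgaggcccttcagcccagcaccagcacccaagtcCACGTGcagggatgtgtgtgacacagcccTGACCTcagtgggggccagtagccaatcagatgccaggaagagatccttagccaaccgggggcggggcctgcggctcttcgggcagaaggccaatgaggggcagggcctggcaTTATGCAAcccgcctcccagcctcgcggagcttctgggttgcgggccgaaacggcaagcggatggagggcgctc

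The Nr1d1 window held an E-prime box 28 bases before its start, and 4.68% of 32851 RefSeq promoter windows of this length held that motif. The Per3 window held 2 D-boxes, 205 and 158 bases before the start, a motif in 3.38% of windows. D-boxes are bound by DBP and TEF, proteins of the PAR-bZIP class. In the Cry1 window an E-prime box and an E-box began 79 and 60 bases before the start, and 7.15% of windows held the E-box. The printed Per1 window had an E-box, an AGGTCA motif and a D-box, 166, 137 and 24 bases before its start. The printed Arntl window held 1 AGGTCA motif, at position 32 after the start, as did 16.3% of windows. The cAMP element TGACGTCA, present in 1.79% of windows, was in none of the windows of these genes. A match describes the letters of this window and shows no binding.

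Nr1d1 was the member with the highest fold change in the knockout cells, and Per3 followed it, while Arntl, Cry1 and Npas2 were lower there. Per1, Per2, Clock and Nr1d2 had libraries of the 2 genotypes at similar or overlapping levels. In a fit over all genes (edgeR, quasi-likelihood test, adjusted p under 0.05), 1 member passed as higher (Nr1d1) and 2 as lower (Arntl and Cry1). Of all genes tested, 16.4% passed, 6.41% as higher and 10.0% as lower, and since the members were taken up with this contrast known, nothing is read from their count. The median log2 fold change was -0.24 over the 10 members and -0.02 over all genes tested. The knockout libraries lay wholly above the heterozygous ones for 3 members and wholly below for 4, whereas 51.5% of all genes tested showed no overlap in either direction. DESeq2 passed Npas2 and Per3 as well, 5 members in all.

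**Figure D1:**
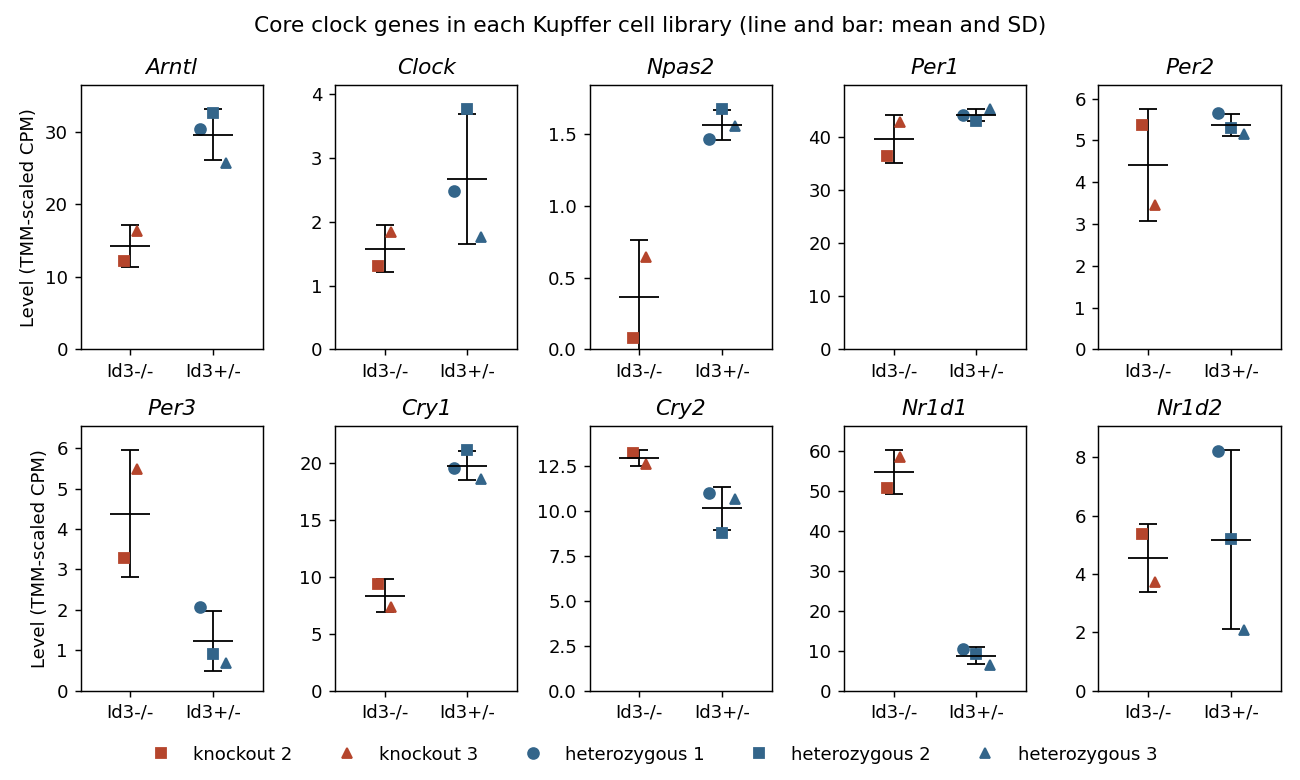
Level of each core clock gene in TMM-scaled CPM, with Id3-/- libraries on the left and Id3+/- libraries on the right of each panel; symbols mark the replicate number, and the line and bar give the mean and SD over libraries. Nr1d1 stands at 50.8 and 58.6 CPM in the knockout libraries and at 6.36 to 10.5 CPM in the heterozygous ones, while Arntl, Cry1 and Npas2 sit lower in the knockout libraries.

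Arntl (ENSMUSG00000055116.7), the obligate partner of the activating pair, stood at 12.2 and 16.3 CPM in the knockout libraries, against 30.4, 32.7 and 25.8 CPM in the heterozygous ones (CPM, counts scaled to library size with TMM factors). Both knockout libraries were below all 3 heterozygous libraries. The log2 fold change was -1.05 ± 0.19 (SE, n = 2 and 3), with means of 14.3 ± 2.89 CPM in knockout libraries and 29.6 ± 3.52 CPM in heterozygous libraries (SD). When each library was left out in turn, Arntl passed in 2 of 5 fits, and not without knockout replicate 2, heterozygous replicate 1 or heterozygous replicate 2.

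Npas2, which can stand in for Clock as the partner of Arntl, was at 0.0796 and 0.646 CPM in the knockout libraries, against 1.46, 1.67 and 1.55 CPM in the heterozygous ones. These are few reads, 6 and 50 counts in the knockout libraries and 113 to 132 counts in the heterozygous ones. The 95% exact Poisson interval ran from 0.0292 to 0.173 CPM in knockout replicate 2 and from 0.480 to 0.852 CPM in knockout replicate 3. These intervals do not overlap, and both lie below that of every heterozygous library. Such intervals cover counting error alone. Over all genes, libraries of the same genotype also differed by more than counting error, so nothing is read from these gaps. The log2 fold change was -2.10 ± 0.83 (SE, n = 2 and 3) and did not pass. It was -1.27 without knockout replicate 2, and -4.26 without knockout replicate 3, where it passed.

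Clock, which encodes the usual partner of Arntl, was at 1.31 and 1.83 CPM in the knockout libraries, against 2.48, 3.76 and 1.76 CPM in the heterozygous ones. The groups overlapped, since heterozygous replicate 3 lay below knockout replicate 3. The log2 fold change was -0.76 ± 0.42 (SE, n = 2 and 3) and did not pass, and with offsets for transcript length and GC content it was 0.03.

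Among the repressors that the activating pair turns on, the 3 Per genes did not move as a group. Per3 (ENSMUSG00000028957.12), whose protein contributes least to keeping the rhythm in mice, was at 3.28 and 5.49 CPM in the knockout libraries, against 2.08, 0.912 and 0.687 CPM in the heterozygous ones. Both knockout libraries were higher than every heterozygous library, and heterozygous replicate 1 stood apart from the other two of its group, between them and the knockout libraries. The log2 fold change was 1.83 ± 0.53 (SE, n = 2 and 3) and did not pass in edgeR, with all libraries or with any 1 of the 5 removed, and it was 2.45 without heterozygous replicate 1. With limma-voom, with DESeq2, or with a filter of at least 1 CPM in 2 samples it passed.

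Per1, which also responds quickly to glucocorticoids and to cAMP signalling, was at 36.4 and 42.8 CPM in the knockout libraries, against 44.1, 43.0 and 45.2 CPM in the heterozygous ones. Knockout replicate 3 and heterozygous replicate 2 were almost level. The log2 fold change was -0.16 ± 0.11 (SE, n = 2 and 3) and did not pass. Per2, a main brake of the loop, was at 5.36 and 3.46 CPM in the knockout libraries, against 5.66, 5.30 and 5.16 CPM in the heterozygous ones. Its groups overlapped through knockout replicate 2, and its log2 fold change of -0.28 ± 0.26 (SE, n = 2 and 3) did not pass and became 0.01 without knockout replicate 3.

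Of the 2 cryptochrome genes, Cry1 was lower in the knockout cells and Cry2 did not pass. Cry1 (ENSMUSG00000020038.9), the stronger repressor of the pair and a gene that REV-ERB proteins also repress, was at 9.36 and 7.33 CPM in the knockout libraries, against 19.6, 21.2 and 18.7 CPM in the heterozygous ones. The knockout libraries lay wholly below, at a mean of 8.35 ± 1.44 CPM, against 19.8 ± 1.27 CPM over the heterozygous libraries (SD). The log2 fold change was -1.25 ± 0.17 (SE, n = 2 and 3), which passed with all libraries and in 3 of 5 fits with 1 library removed, but not without heterozygous replicate 1 or 2. Cry2 was at 13.2 and 12.6 CPM in the knockout libraries, against 11.0, 8.78 and 10.6 CPM in the heterozygous ones. Its knockout libraries lay above all heterozygous ones by a small margin, and the log2 fold change of 0.35 ± 0.17 (SE, n = 2 and 3) did not pass.

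Nr1d1 (ENSMUSG00000020889.11) was at 50.8 and 58.6 CPM in the knockout libraries, against 10.5, 9.28 and 6.36 CPM in the heterozygous ones, from 3827 and 4533 counts and from 866, 732 and 463 counts. The lowest knockout library held several times the highest heterozygous one. The knockout mean was 54.7 ± 5.53 CPM, against a heterozygous mean of 8.73 ± 2.15 CPM (SD), 6.27 times as high. On the log2 scale the difference was 2.65 ± 0.22 (SE, n = 2 and 3). With each library removed in turn the difference ran from 2.46 to 2.81, which describes the contrast for which the gene was already known and adds no support to it.

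On the opposite strand of chromosome 11, the exons of Thra, a thyroid hormone receptor gene, share 263 bases with those of Nr1d1, which is 8.55% of its exon bases. The sources used here do not say whether counting used strand, so reads from that stretch may be missing or assigned to either gene. Thra itself was at 14.6 and 14.5 CPM in the knockout libraries, against 11.4, 10.2 and 10.8 CPM in the heterozygous ones (log2 fold change 0.43 ± 0.14, edgeR adjusted p = 0.0928). The ratio of Nr1d1 to Thra counts was 3.48 and 4.05 in the knockout libraries and 0.923, 0.907 and 0.589 in the heterozygous ones.

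Nr1d2 did not share the pattern of its paralog. It was at 5.36 and 3.72 CPM in the knockout libraries, against 8.22, 5.21 and 2.09 CPM in the heterozygous ones. Both knockout libraries fell within the heterozygous range. Its log2 fold change of -0.19 ± 0.55 (SE, n = 2 and 3) did not pass, and its sign turned in 4 of 14 alternative settings.

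**Figure D2:**
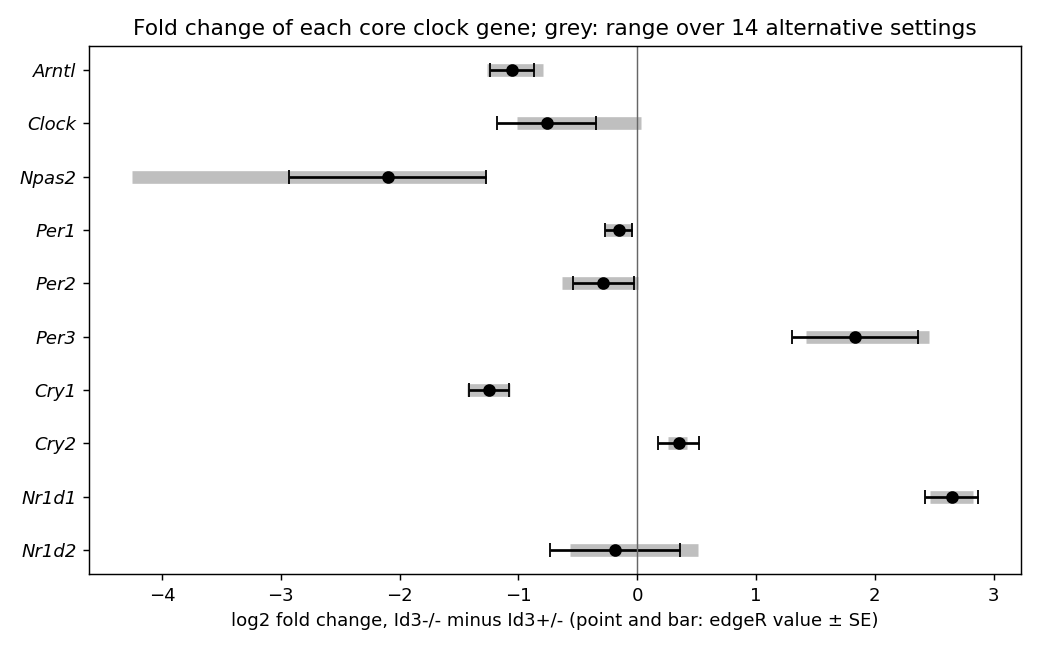
Log2 fold change of each core clock gene, Id3-/- minus Id3+/-, as the edgeR value with its SE (point and bar), and the range of that value over 14 alternative settings (grey band). Nr1d1 and Per3 lie above 0, and Arntl, Npas2 and Cry1 below 0, over their whole bands, the bands of Cry2 and Per1 lie close to 0 on 1 side, and the bands of Clock, Per2 and Nr1d2 reach across 0.

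Ratios between 2 genes within a library do not depend on how libraries are scaled. A ratio that sets a gene higher in the knockout cells over a lower one restates their levels. The members were taken up with the contrast known, so such a separation adds no support. The ratio of Nr1d1 to Arntl counts, the REV-ERB alpha transcript to that of the gene it represses, was 4.16 and 3.59 in the knockout libraries, against 0.346, 0.284 and 0.247 in the heterozygous ones. Nr1d1 was thus the more abundant count in both knockout libraries and Arntl in every heterozygous library, and the mean ratio was 13.2 times as high in the knockout cells. The ratio of Nr1d1 to Nr1d2 was 9.47 and 15.7 in the knockout libraries, against 1.28, 1.78 and 3.05 in the heterozygous ones. For Cry2 to Cry1 it was 1.41 and 1.72 in the knockout libraries, against 0.562, 0.415 and 0.570 in the heterozygous ones. Per3 to Arntl was 0.268 and 0.337 in the knockout libraries, against 0.0684, 0.0279 and 0.0267 in the heterozygous ones, and Per3 to Per1 was also higher in both knockout libraries. Arntl to Clock was at 9.30 and 8.89 in the knockout libraries, against 12.3, 8.68 and 14.7 in the heterozygous ones. Nr1d2 to Arntl was at 0.439 and 0.228 in the knockout libraries, against 0.270, 0.159 and 0.0810 in the heterozygous ones. The genotypes overlapped in both of these ratios. For 2 other pairs the heterozygous ratios lay between those of the knockout libraries. Arntl to Cry1 stood at 1.30 and 2.23 in the knockout libraries and at 1.55, 1.54 and 1.38 in the heterozygous ones, and Per1 to Per2 at 6.79 and 12.3 in the knockout libraries and at 7.80, 8.11 and 8.75 in the heterozygous ones.

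**Figure D3:**
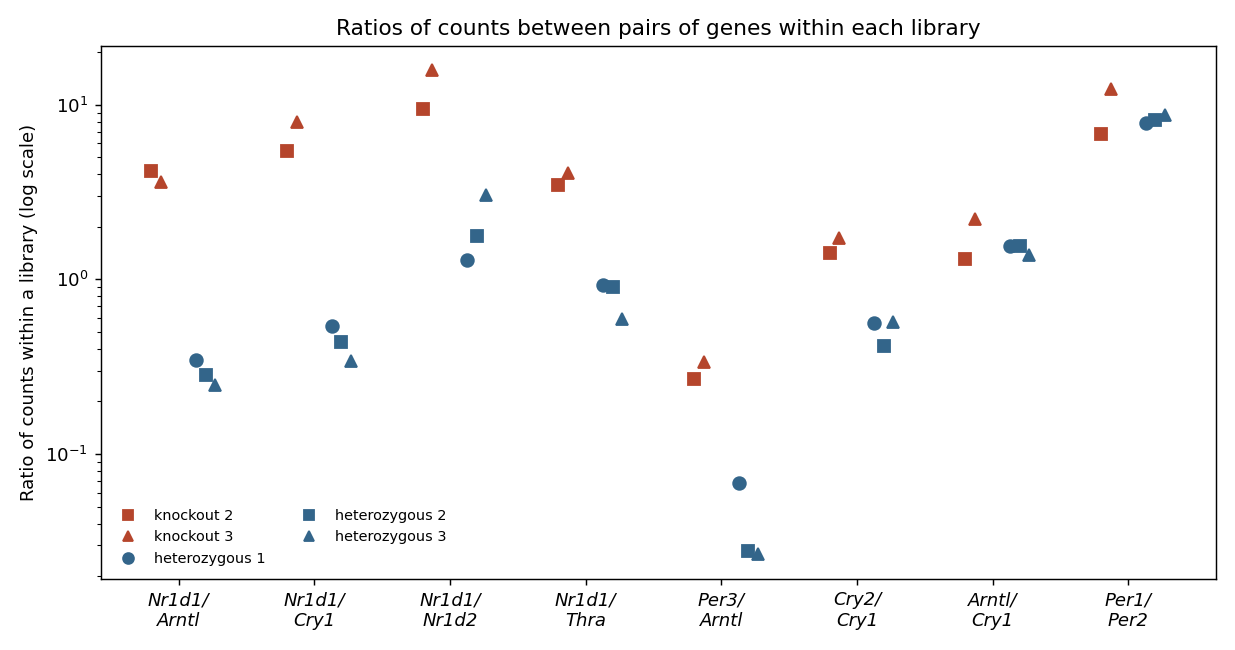
Ratio of the counts of 2 genes within each library, on a log scale, with Id3-/- libraries on the left and Id3+/- libraries on the right of each pair. The ratios with Nr1d1 on top, Per3 to Arntl and Cry2 to Cry1 separate the genotypes, while Arntl to Cry1 and Per1 to Per2 overlap.

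Per length of exon, the order of the genes differed between genotypes. In the knockout cells Nr1d1 led with 17.8 ± 1.80 CPM per kb (SD, n = 2), above Per1 at 7.03 ± 0.80, Cry1 at 2.50 ± 0.43, Cry2 at 2.04 ± 0.07 and Arntl at 1.90 ± 0.38 CPM per kb. Libraries of Cry2 and Arntl overlapped there, as did those of Nr1d2 and Per2 and those of Clock and Npas2, so the order within each of these pairs is not resolved. In the heterozygous cells Per1 led with 7.83 ± 0.20 CPM per kb (SD, n = 3), above Cry1 at 5.93 ± 0.38, Arntl at 3.94 ± 0.47 and Nr1d1 at 2.84 ± 0.70 CPM per kb. Arntl and Nr1d1 overlapped slightly in that group, as did Cry2 with Nr1d2, Nr1d2 with Per2, and Clock with Per3. Clock and Npas2 stood low in both genotypes, at 0.115 ± 0.03 and 0.0757 ± 0.08 CPM per kb in the knockout cells and 0.194 ± 0.07 and 0.326 ± 0.02 CPM per kb in the heterozygous cells. Exon lengths are those of GENCODE M21 over all isoforms, so genes with long rare exons are set too low.

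**Figure D4:**
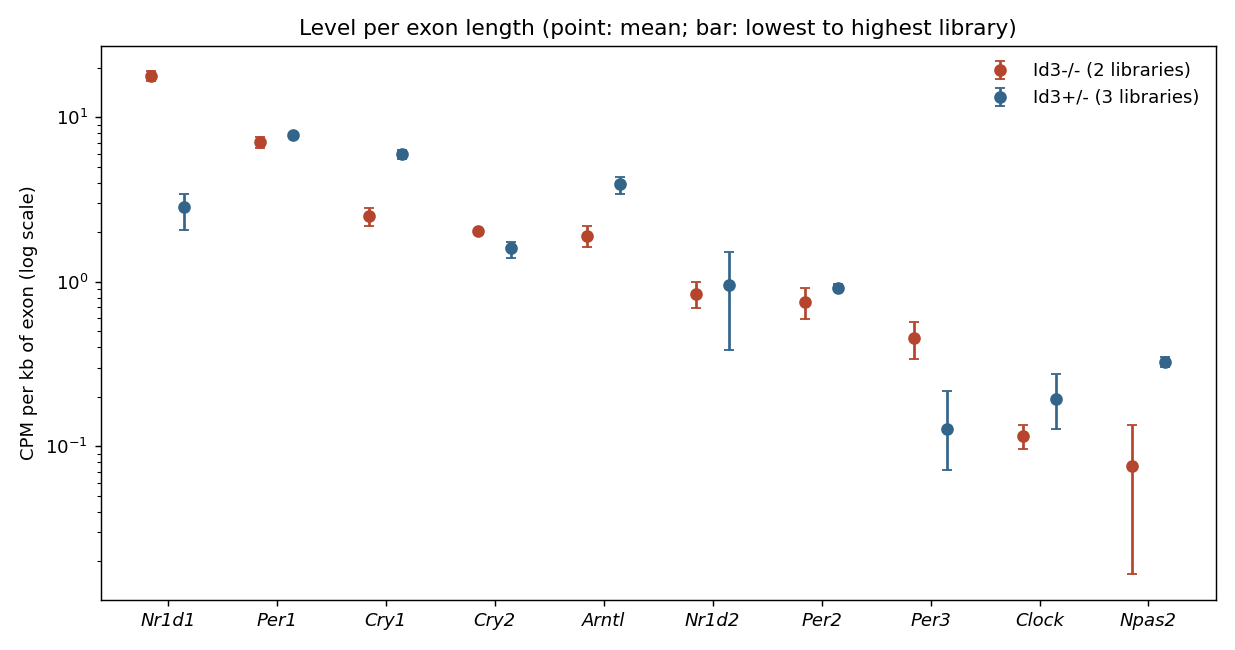
Level of each core clock gene per kb of exon, on a log scale, with the mean over libraries (point) and the lowest to highest library (bar) for Id3-/- and Id3+/- cells, ordered by the knockout mean. Nr1d1 leads at 17.8 CPM per kb in the knockout cells and stands at 2.84 CPM per kb, below Per1, Cry1 and Arntl, in the heterozygous cells.

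Libraries of 1 genotype also differed from each other in some of these genes. Among the heterozygous libraries, the highest was 3.94 times the lowest for Nr1d2, 3.03 times for Per3, 2.14 times for Clock and 1.66 times for Nr1d1. For Nr1d1, Nr1d2 and Per3 it was heterozygous replicate 1 that stood highest and replicate 3 lowest. The SD of log2 CPM over the heterozygous libraries was 0.89 for Nr1d2, larger than in 99.0% of all genes tested, and 0.59 for Per3, larger than in 95.2%, against a median of 0.17 over all genes tested. Per1 was among the steadiest, with an SD of 0.04. Between the 2 knockout libraries the largest ratio was 8.12, for Npas2, and that of Nr1d1 was 1.15.

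Regulators of the clock outside the core also differed between genotypes. Of 27 such genes, 25 were tested, and 5 passed as higher and 3 as lower in the knockout cells, with 17 not passing (edgeR, against 6.41% of all genes tested passing as higher and 10.0% as lower). The median log2 fold change of the list was 0.09. Without knockout replicate 2, heterozygous replicate 1 or heterozygous replicate 2, 3 of the 25 passed.

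Dbp, which encodes a D-box activator and is a direct target of the Arntl and Clock pair, was at 21.4 and 22.3 CPM in the knockout libraries, against 5.81, 3.78 and 5.42 CPM in the heterozygous ones. Every knockout library was far above every heterozygous one, and the log2 fold change was 2.13 ± 0.22 (edgeR adjusted p = 0.00696). Tef, a relative of Dbp, was at 91.7 and 78.4 CPM in the knockout libraries, against 45.3, 38.7 and 42.8 CPM in the heterozygous ones (log2 fold change 1.01 ± 0.12, edgeR adjusted p = 0.00913). Hlf, the remaining member of that class, stayed below 0.6 CPM everywhere and did not pass (it is named after its values were seen). Bhlhe40, the gene of the E-box repressor DEC1, was at 71.3 and 66.1 CPM in the knockout libraries, against 32.5, 29.9 and 35.7 CPM in the heterozygous ones. Its log2 fold change was 1.07 ± 0.12 (edgeR adjusted p = 0.00766). Dbp, Tef and Bhlhe40 each passed whichever of the 5 libraries was removed.

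Crem, a gene of cAMP signalling, rose by 0.72 ± 0.13 on the log2 scale (edgeR adjusted p = 0.0217), and passed in 2 of 5 fits with 1 library removed (not without knockout replicate 2, heterozygous replicate 1 or heterozygous replicate 2). Fbxw11, named after its values were seen, a subunit of a ubiquitin ligase that marks PER proteins for degradation, rose by 0.34 ± 0.08 (edgeR adjusted p = 0.0373). Usp2, a deubiquitinase with rhythmic expression, fell, at -0.56 ± 0.11 (edgeR adjusted p = 0.0245). Usp2 passed in 1 of 5 fits with 1 library removed, the one without heterozygous replicate 3, and Fbxw11 passed in none of them.

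Genes that did not pass included Csnk1d, which encodes a kinase of PER proteins and was the most abundant of the list, at 0.38 ± 0.11 (edgeR adjusted p = 0.0607), and Nono, a PER-associated RNA-binding protein gene, at -0.20 ± 0.11 (edgeR adjusted p = 0.261). Nfil3, whose protein competes with DBP at D-boxes, was at 11.7 and 7.03 CPM in the knockout libraries, against 15.9, 12.98 and 16.6 CPM in the heterozygous ones. Its knockout libraries lay below, but the log2 fold change of -0.70 ± 0.26 did not pass (edgeR adjusted p = 0.115). Ciart, the gene of the repressor CHRONO, was at 0.504 and 1.80 CPM in the knockout libraries, against 0.438, 0.266 and 0.261 CPM in the heterozygous ones, and did not pass either (1.83 ± 0.66, edgeR adjusted p = 0.110). Without knockout replicate 3 it stood at 0.65, and without knockout replicate 2 at 2.47. It is named here after its values were seen.

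**Figure D5:**
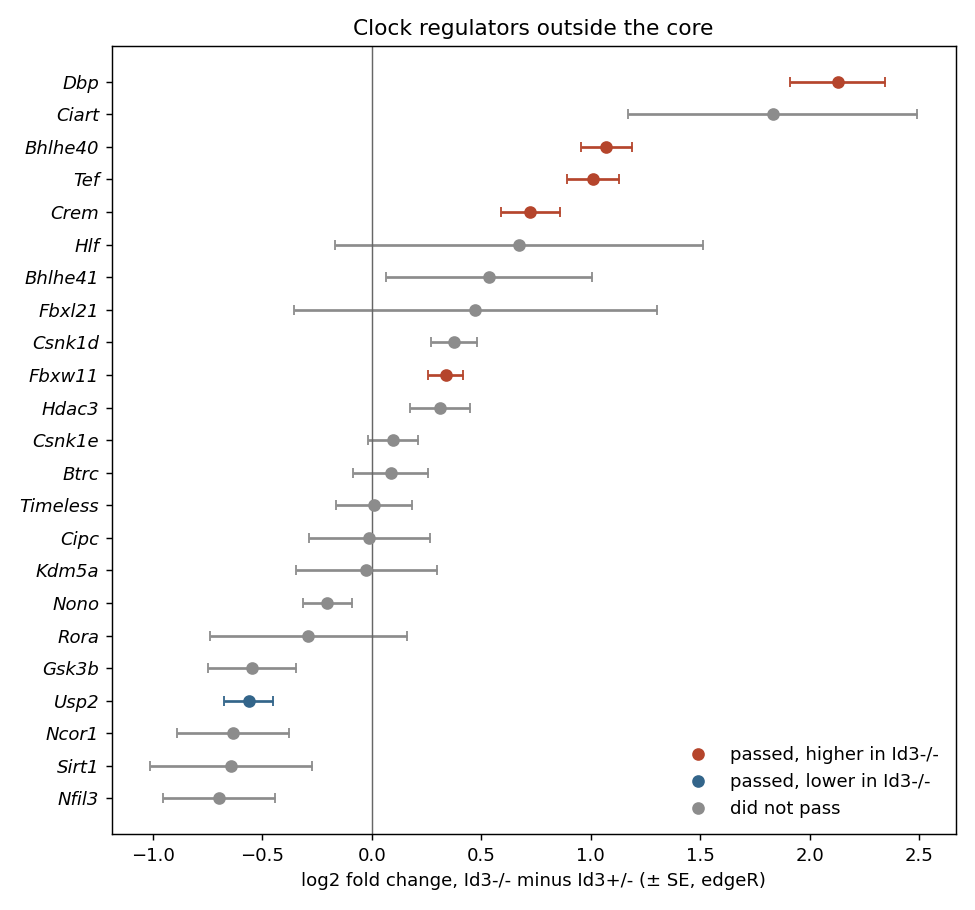
Log2 fold change, Id3-/- minus Id3+/-, with its SE (edgeR) for the tested clock regulators outside the core that are reported here, in order of fold change and coloured by whether they passed at an adjusted p under 0.05. Dbp, Bhlhe40, Tef, Crem and Fbxw11 passed as higher, and Usp2 as lower.

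Genes that REV-ERB proteins are known to repress in mouse macrophages or liver, members left out, moved in both directions. Of 6 genes, 5 were tested, 2 passed as higher, 1 as lower and 2 did not pass (edgeR), where 6.41% of all genes tested passed as higher and 10.0% as lower. Mmp9, a matrix metalloprotease, was at 259 and 158 CPM in the knockout libraries, against 103, 105 and 87.7 CPM in the heterozygous ones (log2 fold change 1.08 ± 0.21, edgeR adjusted p = 0.0240). Neutrophils also store this protease in granules, and the 8 neutrophil markers summed to 208 and 32.2 CPM in the knockout libraries, against 11.2, 6.38 and 6.88 CPM in the heterozygous ones, highest in knockout replicate 2 as Mmp9 was. These marker sums are CPM over library size alone, without TMM factors. The part of neutrophils in the level of Mmp9 was not tested. Il6, an inflammatory cytokine, was at 6.90 and 6.38 CPM in the knockout libraries, against 2.48, 2.78 and 2.70 CPM in the heterozygous ones (1.32 ± 0.21, edgeR adjusted p = 0.0159). The fractalkine receptor gene Cx3cr1 was at 35.8 and 24.0 CPM in the knockout libraries, against 56.0, 54.3 and 50.2 CPM in the heterozygous ones (-0.84 ± 0.19, edgeR adjusted p = 0.0328). The chemokine gene Ccl2 (1.12 ± 0.30, edgeR adjusted p = 0.0541) and Nfil3 did not pass. Without heterozygous replicate 1 or 2, 0 of these genes passed in edgeR, and without knockout replicate 2 only Cx3cr1 did. Without knockout replicate 2 the log2 fold change of Mmp9 was 0.68, and without knockout replicate 3 that of Cx3cr1 was -0.57. Cx3cr1 did not pass with length and GC offsets either.

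Of 10 known rhythmic targets of the clock in liver, all tested, 2 passed as higher and 4 as lower (edgeR), against 6.41% and 10.0% of all genes tested. Their median log2 fold change was -0.38, against -0.02 over all genes tested. The 2 higher ones were Dbp and Tef. Nampt, a rate-limiting enzyme of NAD salvage, was at 13.3 and 18.1 CPM in the knockout libraries, against 36.3, 51.1 and 35.4 CPM in the heterozygous ones. It fell, at -1.38 ± 0.23 on the log2 scale (edgeR adjusted p = 0.0172), and so did Usp2. With length and GC offsets Nampt stood at -0.69. The other two, named after their values were seen, were Gys2, the liver glycogen synthase gene (-1.43 ± 0.31, edgeR adjusted p = 0.0306), and Alas1, the first enzyme of haem synthesis (-0.58 ± 0.14, edgeR adjusted p = 0.0388). Alas1 passed in none of the 5 fits with 1 library removed and Gys2 in 1, the one without heterozygous replicate 3. Por (0.13 ± 0.09) and Cdkn1a (-0.20 ± 0.25) did not pass. Without knockout replicate 2, heterozygous replicate 1 or heterozygous replicate 2, the 2 that passed were both higher, and without knockout replicate 3, 3 passed.

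Immediate-early genes, a class to which Per1 also belongs, were higher in the knockout cells: 9 of 10 passed as higher and 0 as lower (edgeR), against 6.41% and 10.0% of all genes tested. Their median log2 fold change was 1.26, against -0.02 over all genes tested. This list was chosen with earlier results of these data known, so nothing is read from its count. Nr4a1, an orphan nuclear receptor gene, was at 202 and 161 CPM in the knockout libraries, against 34.9, 27.8 and 41.1 CPM in the heterozygous ones (log2 fold change 2.39 ± 0.19, edgeR adjusted p = 0.00369). Junb, a subunit of AP-1, rose by 1.30 ± 0.09 (edgeR adjusted p = 0.00291), Ier2 by 1.17 ± 0.10 (edgeR adjusted p = 0.00442) and Dusp1, a phosphatase of MAP kinases, by 1.77 ± 0.17 (edgeR adjusted p = 0.00567). Fosb did not pass (-0.17 ± 0.40). Without heterozygous replicate 1 or 2, 4 and 5 of the 10 passed.

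The genes whose profile over the 5 libraries lay closest to that of a member were sought among 8822 named genes of at least 5 CPM, by the Euclidean distance of centred log2 levels. For Nr1d1 these were Cd207, which encodes langerin (distance 0.44), the stress kinase-like gene Trib3 (0.48) and Asns, the asparagine synthetase gene (0.62). Cd207 was at 898 and 893 CPM in the knockout libraries, against 176, 171 and 154 CPM in the heterozygous ones. For Arntl they were Sipa1l3 (0.07), Pla2g4a (0.09) and Fam13b (0.10), and for Per1 Mafg (0.04), Tfdp1 (0.05) and Ubfd1 (0.06). The genes nearest to Nr1d1 lay farther from it than those nearest to Arntl or Per1 did. With only 5 libraries in 2 groups, nothing is read from closeness of profile.

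Depth was 74.8M to 80.9M gene-assigned counts per library. Reads assigned to no gene made up 40.0% and 42.8% of all entries in the knockout libraries, against 47.0%, 47.5% and 48.6% in the heterozygous ones, so this share moved with genotype, and its part in the results was not tested. Id3 was at 1.01 and 1.42 CPM in the knockout libraries, against 229, 222 and 256 CPM in the heterozygous ones, which matches the labels. Levels of the cell type markers are CPM over library size alone, without TMM factors. The 6 Kupffer cell markers, of which 0 passed in edgeR, summed to 39156 to 43952 CPM in knockout libraries, against 41144 to 42205 CPM in heterozygous libraries. That sum holds opposite moves. In both knockout libraries Clec4f (15259 and 13872, against 16701 to 16895 CPM), Vsig4, Timd4 and Adgre1 lay below every heterozygous library. Cd5l lay above (11537 and 10598, against 8086 to 9571 CPM), and Csf1r overlapped. All 8 hepatocyte markers were detected and summed to 2969 and 7694 CPM in the knockout libraries, against 16077 to 20825 CPM in the heterozygous ones. Of these, 6 of 8 passed as lower (edgeR). Ttr overlapped, at 111 and 420 CPM in the knockout libraries, against 277 to 287 CPM in the heterozygous ones. The hepatocyte sum thus moved in the direction opposite to Nr1d1, Per3, Dbp and Tef and in the same direction as Arntl, Cry1, Npas2 and Gys2. Of the neutrophil markers, 3 of 5 tested passed as higher. Ltf and Mpo were at 0 in knockout replicate 3, and Ngp, Ltf, Camp or Mpo at 0 in 1 or more heterozygous libraries. Stellate cell markers were at 44.9 and 56.6 CPM in the knockout libraries, against 90.1 to 94.6 CPM in the heterozygous ones. Their part in the levels of the clock genes was not tested, and in bulk RNA fewer cells of a type and less RNA per cell cannot be told apart.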

How the data were processed

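The authors deposited a table of raw counts, with a row per gene. The submitters' processing notes list HTSeq (0.5.4), R (3.1.2), DESeq (1.18.0) and build mm9. Per the labels' protocols, liver was disrupted mechanically and SMART-seq V4 chemistry was used for amplification. The sources used here name no aligner, annotation or strandedness, and 37902 of 46983 gene IDs carry the version of GENCODE M21, a release on a later build than mm9, so the counting build is uncertain. Columns were matched to libraries by genotype and replicate number. The "3w" in their names is unexplained. Entries that name no gene (40.0% to 48.6% of everything counted, mostly reads with several alignments) entered neither library sizes nor tests, so genes with close paralogs are counted in part only.

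Genotypes were compared as knockout minus heterozygous over all 5 libraries with edgeR 4.0.16 in R 4.3.3 (filterByExpr, TMM, quasi-likelihood test, Benjamini-Hochberg adjustment over 16436 genes, threshold 0.05). The SE is the log2 fold change divided by the square root of F. For 2 libraries against 3, an exact permutation test on the absolute difference of means could reach no p below 0.1, and none was run. Alternatives were DESeq2 1.42.0, limma-voom (limma 3.58.1), other scalings and filters, a replicate block, leaving out each library, and offsets for transcript length and GC content. The edgeR, limma-voom and DESeq2 fits were also run on simulated data. There a larger share of the calls was false with DESeq2 than with edgeR or limma-voom. Counts for 4 of the 5 lists outside the core under these alternatives were added after the data were seen. Within lists, genes were named by a fixed rule: up to 4 passing by smallest p and up to 2 others with the highest level, and other names are marked in the text. A few listed genes are counted in their lists but not reported here by name. The members, lists and rule were chosen with earlier results of these data known. The counts of passing genes in each list are thus descriptions, and no list was tested as a set.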

Additional observations from a re-analysis of the deposited data

How the results depend on the processing

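The 3 members that passed (Arntl, Cry1 and Nr1d1) also passed with RLE, upper-quartile or library-size scaling, with another filter or none, with limma-voom, DESeq2 and the length and GC offsets. None of the 3 passed with the replicate block. Over 14 alternatives Nr1d1 ran from 2.46 to 2.83 on the log2 scale. These fits reuse the same libraries, and the members were taken up with this contrast known, so they add no support. DESeq2 passed 5 members, 4629 genes in all, 5 REV-ERB repressed genes and 5 glucocorticoid-induced genes, where edgeR passed 3, 2698, 3 and 3. Length and GC offsets passed 1509 genes. Scalings moved the median log2 fold change of all genes by at most 0.07, and the length and GC offsets by 0.08. Upper-quartile scaling gave 1443 higher and 1499 lower genes, against 1054 and 1644 in the main fit.

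Leaving out 1 library passed 1 to 4 members, 3 to 9 clock regulators, 335 to 2540 genes, 0 to 2 REV-ERB repressed genes, 2 to 5 rhythmic targets, 4 to 9 immediate-early genes and 2 to 3 glucocorticoid-induced genes. The lowest count of all genes came without heterozygous replicate 2. With 1 knockout library left, it is assumed to vary like the heterozygous ones.

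With a replicate block, edgeR passed 1 gene in all and 0 in each list. An unadjusted p under 0.05 was found for 3497 genes, among them 7 clock regulators and 21 of 31 genes of the other lists. That fit has 1 residual degree of freedom. The deviations of same-numbered libraries had correlations of -0.06 for both numbers over 16436 genes. Deviations of 2 knockout libraries mirror each other, so these values are not separate checks and cannot exclude a shared batch. The numbers were not taken to pair the libraries.

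Of 140 fitted values of members under alternatives, 6 turned sign, as did 8 of 587 for other named genes, all in genes that did not pass. With length and GC offsets the log2 fold change was 0.031 for Clock, 0.51 for Nr1d2, -0.051 for Por, 0.090 for Sgk1, 0.058 for Tfdp1 and 0.14 for Ubfd1. Over the fits without 1 library, Per2 ran from -0.64 to 0.0065, Nr1d2 from -0.56 to 0.32, Cdkn1a from -0.35 to 0.072 and Fosb from -0.77 to 0.26. The sign turned without knockout replicate 3 for Per2, Nr1d2 (0.061) and Fosb, and without heterozygous replicate 1 for Nr1d2, Cdkn1a and Fosb (0.033). With the replicate block it was 0.43 for Nr1d2 and 0.068 for Cdkn1a. The cause was not tested.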

Other observations

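Genes induced by glucocorticoids, hormones that also induce Per1, moved in both directions. Of 7 genes tested with Per1 left out, 1 passed as higher and 2 as lower in the knockout cells (edgeR), against 6.41% and 10.0% of all genes tested. Their median log2 fold change was -0.88, against -0.02 over all genes tested. Fkbp5, a chaperone that tempers the glucocorticoid receptor, was at 128 and 131 CPM in the knockout libraries, against 406, 407 and 291 CPM in the heterozygous ones. Its log2 fold change was -1.51 ± 0.17 (SE, n = 2 and 3, edgeR adjusted p = 0.0079), and it passed in all 5 fits that left out 1 library. Ddit4, an inhibitor of mTORC1 signalling, fell, at -1.52 ± 0.35 on the log2 scale (edgeR adjusted p = 0.0353), a call that held in 1 of those 5 fits, the one without heterozygous replicate 3. The phosphatase gene Dusp1, also an immediate-early gene, rose by 1.77 ± 0.17 (edgeR adjusted p = 0.00567). The 2 most abundant others, Tsc22d3 (0.24 ± 0.13, edgeR adjusted p = 0.253) and Sgk1 (-0.07 ± 0.11, edgeR adjusted p = 0.716), did not pass. Tsc22d3, which encodes the anti-inflammatory protein GILZ, was at 1194 and 1181 CPM in the knockout libraries, against 1162, 986 and 876 CPM in the heterozygous ones.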
